A study of Homo sapiens with 16 samples.

Results

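Neurotransmitter receptor genes were taken from the RefSeq annotation of GRCh38 by symbol, for 11 classes. They are the AMPA (GRIA), kainate (GRIK), NMDA (GRIN) and delta (GRID) glutamate receptors, the metabotropic glutamate receptors (GRM), the GABA-A (GABR), glycine (GLRA, GLRB), nicotinic (CHRN) and muscarinic (CHRM) acetylcholine receptors, and the serotonin (HTR) and dopamine (DRD) receptors. This gave 92 of 19970 protein-coding genes on chromosomes 1 to 22 and X, of which 62 encode subunits of ion channels and 30 encode G protein coupled receptors. GABA-A is the largest class with 19 genes, followed by serotonin with 17 and nicotinic with 16, and delta is the smallest with 2.

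The series holds 16 ChIP-seq samples (DNA sequenced after immunoprecipitation of a chromatin protein, or input DNA) from HepG2, a line of hepatocellular carcinoma, and THLE-2, an immortalised line of non-tumour liver epithelium. JARID2 was precipitated in both, while EZH2 and trimethylated histone H3 (H3K27me3) were precipitated in THLE-2, with 2 replicates of each that the series calls biological and 1 input library for every IP library. The labels name no treatment or genetic change beyond formaldehyde fixation, and each line stands for its tissue as 1 culture model. Titles and antibody tags gave the target of each library. The protocol of HepG2 JARID2 replicate 1 names a different antibody supplier from the protocol of the other samples, so antibody and replicate cannot be told apart in that group. Peak lists measure no RNA, so the identity of the cells was not checked against markers here.

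EZH2 is the catalytic subunit of Polycomb repressive complex 2, which places methyl groups on histone H3 at lysine 27, and H3K27me3 is the trimethylated state. JARID2 is an accessory subunit that helps bring the complex to chromatin. Ionotropic receptors open an ion pore when a transmitter binds, and metabotropic receptors signal through G proteins. Most of these genes are best known from neurons or muscle, and Polycomb complexes are known to occupy many such genes in cells that do not use them, often where the DNA is rich in CG dinucleotides.

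A gene was counted at its ends when a peak of the authors lay within 2 kb of either annotated end (at least 1 bp). It was counted in its interior when a peak overlapped, by at least 1 bp, the part farther than 2 kb from both ends. A broad peak at a gene end can reach that part, so 1 peak can count as both. Fold enrichment below is the authors' value for the strongest gene-end peak of a gene, as the peak caller listed it with the input as control, and ranks peaks within a list only. A gene without a peak is one where none was called, which does not show that the protein or mark was absent.

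Promoter windows of genes that ranked high among the receptor genes for EZH2 or H3K27me3, and have a promoter entry, are shown first. They serve to compare CG content and the peaks over them. Not all ranked high in the whole lists, with the EZH2 peak of HTR2C at 58.8% by fold in replicate 2. Each runs from 250 bases before to 50 bases after a RefSeq transcript start (GRCh38.p14, 300 bases, gene strand), in lower case, with every CG in capitals. The first is of GRIK5 (chr19:42070157-42070456, minus strand), whose best-ranked EZH2 peak lies at the other end of the gene, the second of GRIK3 (chr1:37034466-37034765, minus strand), and the third of HTR2C (chrX:114583836-114584135, plus strand), which carried both EZH2 and H3K27me3. The fourth, of GABRG1 (chr4:46124005-46124304, minus strand), and the fifth, of HTR3B (chr11:113904546-113904845, plus strand, inside the annotated gene), are among the genes with H3K27me3 and no EZH2 peak in either replicate. They do not represent the CG content of that set.
GRIK5: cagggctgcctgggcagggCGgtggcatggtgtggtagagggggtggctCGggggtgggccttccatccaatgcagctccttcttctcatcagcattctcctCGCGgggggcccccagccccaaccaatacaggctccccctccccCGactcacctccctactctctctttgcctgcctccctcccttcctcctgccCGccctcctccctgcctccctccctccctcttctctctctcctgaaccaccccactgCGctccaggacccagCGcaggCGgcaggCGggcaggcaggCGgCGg
GRIK3: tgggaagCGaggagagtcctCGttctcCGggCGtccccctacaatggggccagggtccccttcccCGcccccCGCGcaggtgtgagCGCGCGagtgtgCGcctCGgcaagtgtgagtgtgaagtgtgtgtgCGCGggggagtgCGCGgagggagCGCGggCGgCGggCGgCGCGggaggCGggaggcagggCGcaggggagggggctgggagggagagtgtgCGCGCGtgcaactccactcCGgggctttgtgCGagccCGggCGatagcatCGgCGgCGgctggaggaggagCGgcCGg
HTR2C: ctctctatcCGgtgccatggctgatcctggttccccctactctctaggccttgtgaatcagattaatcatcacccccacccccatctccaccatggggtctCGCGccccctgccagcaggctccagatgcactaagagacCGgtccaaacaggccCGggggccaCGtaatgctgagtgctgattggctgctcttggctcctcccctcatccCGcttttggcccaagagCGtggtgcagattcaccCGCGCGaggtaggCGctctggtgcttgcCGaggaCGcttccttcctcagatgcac
GABRG1: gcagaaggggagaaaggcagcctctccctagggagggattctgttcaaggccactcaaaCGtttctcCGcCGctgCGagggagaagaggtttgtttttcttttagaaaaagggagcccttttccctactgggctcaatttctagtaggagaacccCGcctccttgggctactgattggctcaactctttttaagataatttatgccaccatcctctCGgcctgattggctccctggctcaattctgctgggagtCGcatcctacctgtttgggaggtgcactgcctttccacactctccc
HTR3B: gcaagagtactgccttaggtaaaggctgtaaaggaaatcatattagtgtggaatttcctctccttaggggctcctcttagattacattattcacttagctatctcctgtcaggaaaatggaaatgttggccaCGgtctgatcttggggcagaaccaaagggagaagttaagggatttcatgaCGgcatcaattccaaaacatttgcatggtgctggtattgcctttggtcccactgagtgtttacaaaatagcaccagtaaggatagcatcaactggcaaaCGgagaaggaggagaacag

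The GRIK3 window holds 37 CG dinucleotides (observed over expected ratio 0.97), HTR2C 14 (0.519), GRIK5 12 (0.358), GABRG1 7 (0.342) and HTR3B 3 (0.211). A CG reads the same on both strands, and 98.1% of the 15812 promoter windows of coding genes hold at least 1. EZH2 peaks lay over the GRIK3 and HTR2C windows in both replicates and over the GRIK5 window in replicate 2, and over neither the GABRG1 nor the HTR3B window. H3K27me3 peaks lay over the HTR2C, GABRG1 and HTR3B windows in both replicates and over the GRIK5 and GRIK3 windows in replicate 2 alone. No JARID2 peak of any library overlapped these 5 windows. Among the 14 of 17 genes with EZH2 in both replicates that have a promoter entry, the CG ratio ranged from 0.358 to 0.976 with a median of 0.768. Among the 19 of 22 genes with no gene-end peak in any library that have one, it ranged from 0.0442 to 1.03 with a median of 0.689, so the ranges overlapped. A comparison with H3K27me3 genes or with all coding genes is void, since fewer than 80% of those genes have a promoter entry (76.5% and 79.2%). The 13 windows of receptor genes with gene-end H3K27me3 in both replicates and EZH2 in neither ranged from 0.0744 to 0.917, with a median of 0.43. GABRG1 and HTR3B lie below that median.

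The IP libraries held between 7.95 and 39.0 M (1e6) filtered tags and gave between 2081 and 90461 peaks on these chromosomes. The shallowest library, HepG2 JARID2 replicate 1, gave 15687 peaks, against 4075 in the deeper replicate 2 (14.6 M tags). H3K27me3 replicate 2 gave 90461 peaks against 46173 in replicate 1. The false discovery rate that the authors list for the members' gene-end peaks was 100% in both EZH2 lists, both H3K27me3 lists and HepG2 JARID2 replicate 2. It was between 0 and 1.93% in HepG2 JARID2 replicate 1, and 17.12% and 42.32% for the single gene-end peaks of the THLE-2 JARID2 replicates. All listed peaks passed the MACS p cutoff of 1e-05, and the scores, −10 times the log10 of that p, ran from 70.26 to 1210.8 and from 54.75 to 1415.58 at the members in EZH2 replicates 1 and 2.

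**Figure D1:**
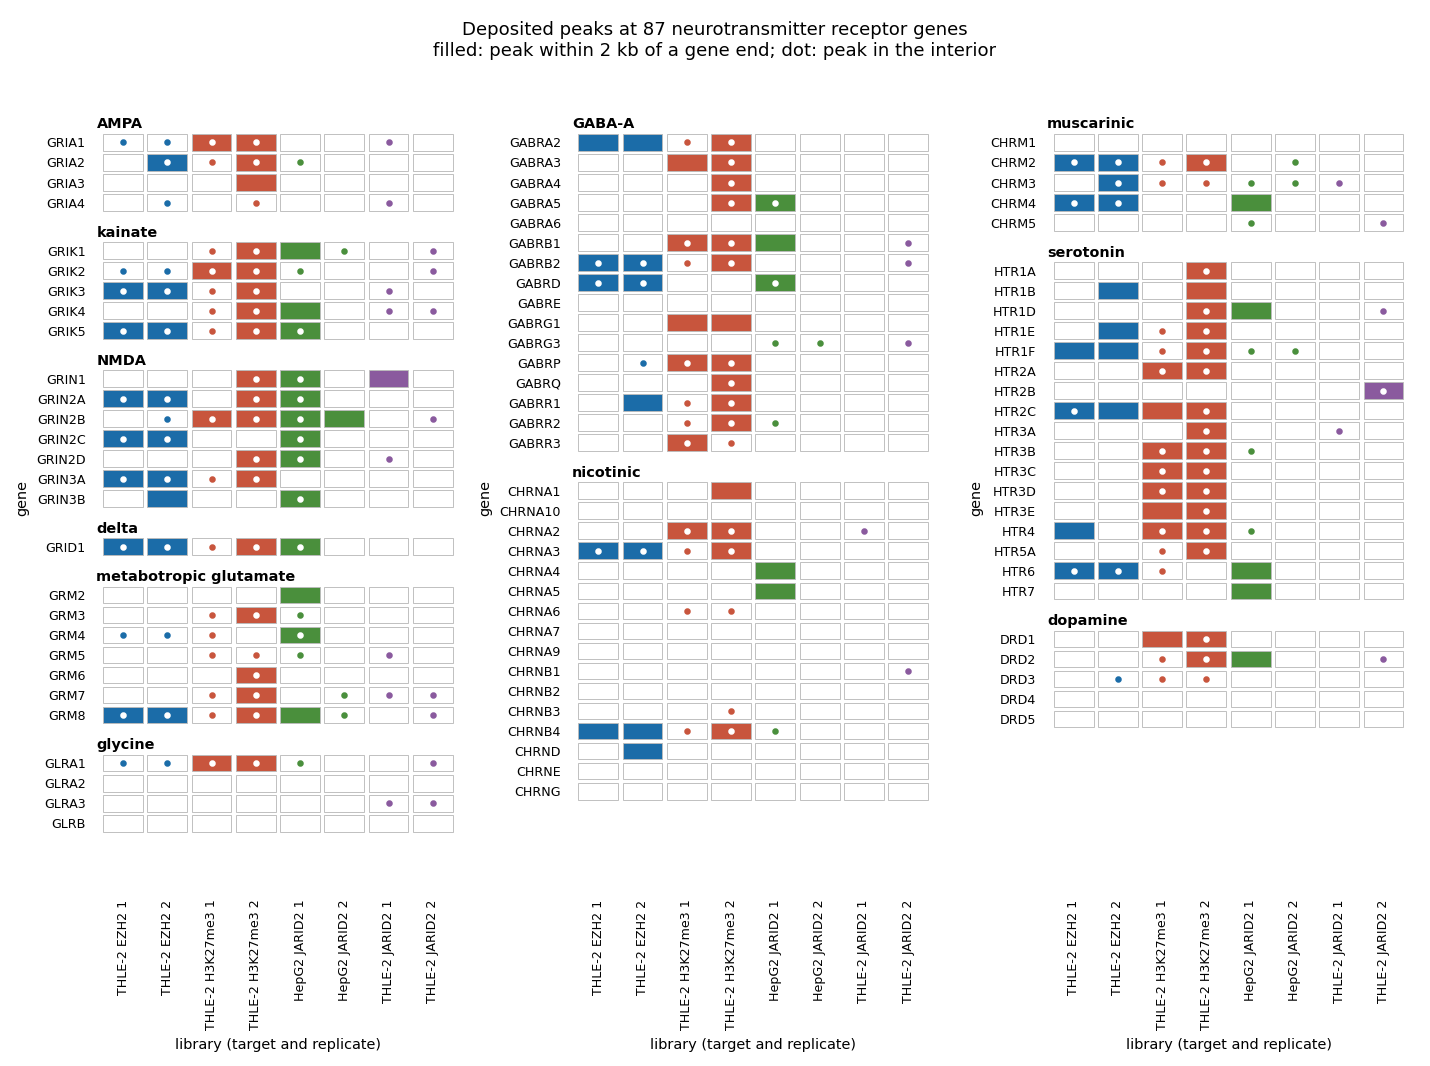
Each row is 1 of 87 receptor genes and each column 1 of the 8 IP libraries, with a filled box for a peak within 2 kb of a gene end and a dot for a peak in the interior. EZH2 and H3K27me3 fill boxes in most classes, H3K27me3 replicate 2 fills the most rows, and the JARID2 columns other than HepG2 replicate 1 each fill 1.

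EZH2 lay at the ends of receptor genes for each of the main transmitters except glycine and dopamine. In replicate 1, 20 of the 92 genes had a gene-end peak, against a background of 5.92% of all coding genes. In replicate 2, 24 had one, against 6.54%. Both replicates called 17 genes (18.5%, against 4.88%). In all 17 the peaks of both replicates lay at the same gene end, as in 972 of the 975 such coding genes, a like share. The share was 17.7% among the 62 ion channel genes and 20.0% among the 30 G protein coupled genes, so the larger classes were alike in these lists. NMDA had 3 of 7 genes, kainate 2 of 5, muscarinic 2 of 5, GABA-A 3 of 19, serotonin 3 of 17, nicotinic 2 of 16 and metabotropic glutamate 1 of 8. No AMPA, glycine or dopamine receptor gene was called in both replicates. In replicate 1 alone 3 genes had a gene-end peak, HTR4 among them. CHRM3, GRIN3B, CHRND, GRIA2, HTR1B, HTR1E and GABRR1 had one in replicate 2 alone.

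By the worse of the ranks in both lists, the kainate genes GRIK5 and GRIK3 came first, while GRIK1, GRIK2 and GRIK4 had no gene-end EZH2 peak. GRIK5 (chr19:41998324-42070206) encodes a high-affinity subunit that works only with other kainate subunits, and its fold was 9.38 in replicate 1 (374 tags) and 9.26 in replicate 2 (426 tags). Those peaks, chr19:41996676-42000623 and chr19:41996565-42000222, lay at the downstream end of the gene, and replicate 2 had a second, weaker peak of fold 3.52 over the start. GRIK3 (chr1:36795527-37034515), a subunit that forms channels by itself, had 9.85 and 7.16 at its start, with peaks 7202 and 6102 bp wide and 1039 and 922 tags. By fold the GRIK5 peak stood in the top 31.0% of list 1 and the top 8.94% of list 2, and the GRIK3 peak in the top 24.6% and 43.9%. In list 1 GABRD (18.3%) and GRIN2C (22.8%) ranked above both.

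NMDA receptors are calcium-permeable channels that need both glutamate and glycine or D-serine. GRIN2C (chr17:74842023-74861532), a glutamate-binding subunit best known from cerebellum, had EZH2 folds of 10.14 and 6.77, with 959 tags in each replicate. GRIN2A, its relative of the adult forebrain, had 5.05 and 5.04, and GRIN3A, a glycine-binding subunit, had 6.26 and 5.88. GRIN2A and GRIN3A thus ranked in the weaker part of both lists, while GRIN2C stood in the top 22.8% and 48.1%. GRIN1, the obligatory subunit, GRIN2B and GRIN2D had no gene-end EZH2 peak in either replicate. GRID1, a delta receptor that binds cerebellins at synapses and is not opened by glutamate in the usual way, had 9.2 and 6.05, over peaks 6196 and 6769 bp wide. GRM8, a presynaptic receptor that lowers transmitter release through Gi proteins, had 8.17 and 6.32.

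Among the GABA-A genes, whose products form the main inhibitory chloride channels of the brain, GABRD (delta subunit, extrasynaptic receptors) had EZH2 folds of 10.55 and 5.94. GABRA2, an alpha subunit, had 9.7 and 5.09, and GABRB2, a beta subunit, had 6.33 and 4.25. CHRNA3 and CHRNB4 encode the subunits of the nicotinic receptor of autonomic ganglia. They lie next to each other and shared 1 EZH2 peak, chr15:78618530-78622873 in replicate 1 and chr15:78618373-78622246 in replicate 2, with folds of 8.33 and 5.68. It covered the start of CHRNA3 and reached the window at the downstream end of CHRNB4, so these 2 of the 17 genes share 1 peak.

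Of the G protein coupled receptors, HTR2C, a Gq-coupled serotonin receptor of the brain, had EZH2 folds of 9.73 and 6.5. HTR6, a Gs-coupled receptor, had 8.6 and 6.21, and HTR1F, a Gi-coupled receptor, had 5.72 and 5.24. CHRM4 and CHRM2 are the Gi-coupled muscarinic receptors, of which CHRM2 slows the heart. CHRM4 had 7.22 and 5.82 and CHRM2 had 5.95 and 3.15, the lowest fold of the members in replicate 2. CHRM4 is a short gene, and EZH2 peaks covered 52.9% and 35.4% of it, ahead of GABRD (21.5% and 25.3%), GRIN2C (16% and 15.4%) and HTR6 (14.1% and 16.2%). The median fold of the strongest gene-end peak of each member was 8.33 and 5.68, with CHRNA3 and CHRNB4 counting the same peak. Over every gene-end EZH2 peak of all coding genes it was 7.66 and 5.84. Median widths of 3884 and 3557 bp stood beside 3767 and 3517 bp. These values were close, but the strongest peak of a gene and every peak are unlike measures, so they give only a rough comparison.

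**Figure D2:**
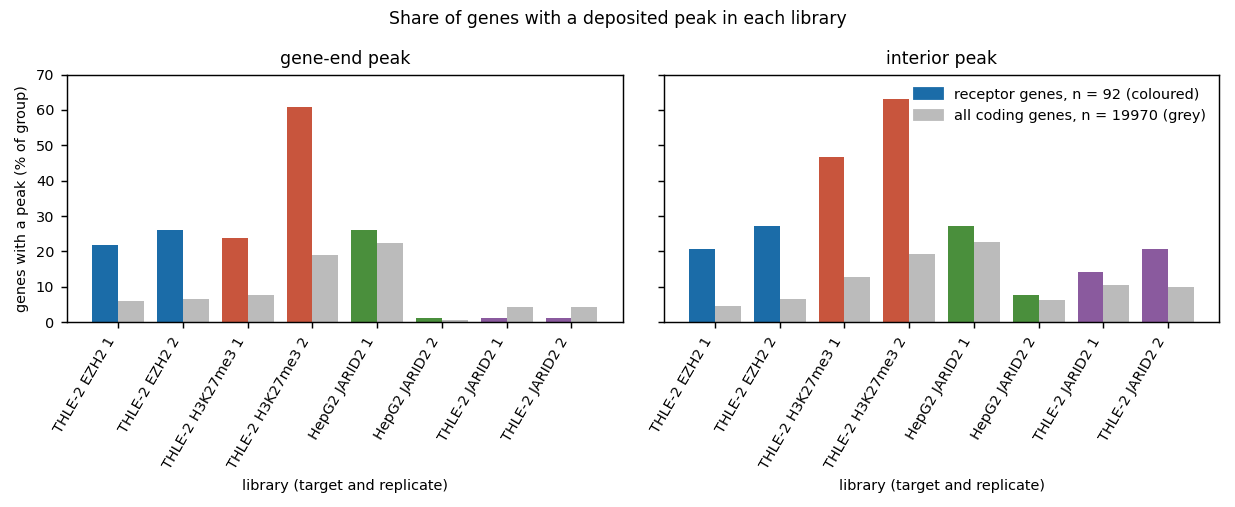
Coloured bars give the percent of the 92 receptor genes, and grey bars the percent of all 19970 coding genes, with a gene-end peak (left) or an interior peak (right) in each of the 8 libraries. The receptor bar is above the grey bar in both EZH2 and both H3K27me3 libraries in both panels, and below it for gene-end peaks in both THLE-2 JARID2 libraries.

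Receptor genes are long, with a median of 63.3 kb (2.38 to 1510 kb) beside 24.2 kb over all coding genes, and the share of genes with a peak changed with length. Within each length bin from 10 kb up, the EZH2 gene-end share of the members was still above that of all genes of the bin. It was 5 of 28 (17.9%) against 3.39% from 10 to 50 kb, 4 of 26 (15.4%) against 4.83% from 50 to 200 kb, and 7 of 26 (26.9%) against 11.5% over 200 kb. Under 10 kb it was 1 of 12 members (8.33%) against 5.41%, a single gene and near the share of all genes. For the 67 receptor genes with a known strand and more than 4 kb of length, the EZH2 peak lay at the start in 13 and at the other end in 2 in replicate 1. In replicate 2 it lay at the start in 18 and at the other end in 3, with GRIK5 in both counts. Over all 13914 such genes the starts took 4.76% and 5.2%, and the other ends 1.06% and 1.24%.

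The receptor genes with H3K27me3 in both replicates and the 17 with EZH2 in both replicates shared 1 gene, HTR2C. Over all coding genes, 157 of the 975 with EZH2 in both replicates also had H3K27me3 in both. In H3K27me3 replicate 1, 22 receptor genes had a gene-end peak (23.9%, against 7.7% of all coding genes), and in replicate 2, 56 had one (60.9%, against 19.1%). Both replicates called 21 genes (22.8%, against 6.75%), of which 18 had peaks at the same end, as did 1280 of the 1348 such coding genes. Replicate 2 alone called a further 35, and replicate 1 alone called GABRR3, so the size of the set depends on which replicate is read. With all peaks the count of 21 is above the 17 of EZH2. It is below that of EZH2 with a score of at least 100 (10 against 13) or gene starts alone (11 against 13). With the 2081 top-scoring peaks of each list it is 2 against 15. However, 2081 is the whole EZH2 replicate 1 list, while the H3K27me3 lists fall from 46173 and 90461 peaks, so that order cannot compare the targets. Shares over all coding genes were not counted at these settings. By class the 21 are 7 of 17 serotonin, 6 of 19 GABA-A and 8 genes of the other classes, with no muscarinic gene. Ion channels made up 16 and G protein coupled receptors 5. By length, 4 of 12 members under 10 kb (33.3%, against 6.54% of all genes in that bin) were among the 21. From 10 to 50 kb it was 2 of 28 (7.14%, against 6.09%), near the share of all genes. From 50 to 200 kb it was 6 of 26 (23.1%, against 6.93%), and over 200 kb 9 of 26 (34.6%, against 10.7%). For 17 of the 21 no EZH2 peak was called at either end in either replicate, as for 1091 of the 1348 such genes over all coding genes, a like share.

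Among the GABA-A genes, H3K27me3 folds ranged from high to low in their lists. GABRG1, a gamma subunit, had 14 in replicate 1 and 17.51 in replicate 2 at its start, in the top 6.06% and 0.884% of the lists, over 179 and 228 tags. GABRP, the pi subunit, which is known from epithelia outside the brain, had 14 at its start and 8.89 at its other end. GABRA3, an alpha subunit, had 9.87 and 12 at 1 end, in the top 41.5% and 11.1%. GABRB1, a beta subunit, had 6.76 at its other end in replicate 1 and 6.4 at its start in replicate 2, in the top 92.8% and 79.8%, so it stood among the weaker peaks. Replicate 2 also had a peak at the other end of GABRB1, and its peak at the start was shared with the start of the neighbour GABRA4. GABRB2 had the highest fold of the members in replicate 2, 24.95, and no gene-end peak in replicate 1.

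In the serotonin class, 4 of the 5 channel genes had gene-end H3K27me3 in both replicates. HTR3A to HTR3E encode the subunits of the serotonin-gated cation channel, and HTR3B (13.04 and 12.53), HTR3C (14 and 11.02), HTR3D (10.62 and 12.16) and HTR3E (9.17 and 6.12, at opposite ends) were those 4. HTR3A, the subunit every such channel needs, had none in replicate 1 and 11.5 in replicate 2, where peaks covered 98.2% of the gene. HTR2A and HTR4, Gq-coupled and Gs-coupled receptors, had 11.21 and 8.25 and 9.17 and 10.91. HTR2C (8.71 and 11.06) was the 1 receptor gene with gene-end EZH2 and H3K27me3 in both replicates (1.09% of the members, 0.786% of all coding genes).

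In the other classes, GRIA1, an AMPA subunit of fast excitatory synapses, had H3K27me3 folds of 11.61 at its start in replicate 1 and 10.1 at its other end in replicate 2. A replicate 2 peak also lay at the start of GRIA1. GRIK2, a kainate subunit, had 10.4 and 10.34 at its start. GLRA1, the alpha subunit of the glycine receptor of spinal cord, had 14 and 6.63, and DRD1, the Gs-coupled dopamine receptor, 8.21 and 13.34. CHRNA2 had 8.76 and 5.78 for its strongest peaks, which lay at opposite ends, and both replicates also had a peak at a common end. GRIN2B had 6.28 and 7.68 at its other end. The median fold of the strongest gene-end peak of each member was 10.1 and 7.12, beside 9.66 and 7.27 for every gene-end H3K27me3 peak. The values were close, but these are unlike measures and give only a rough comparison of height.

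H3K27me3 also spread over the bodies of these genes. Interior peaks lay in 43 receptor genes in replicate 1 (background 12.7%), 58 in replicate 2 (19.2%) and 41 in both (44.6%, against 12.1%). With the midpoint of the peak required in the interior, 39 genes were called in both. All 5 kainate genes, 5 of 8 metabotropic glutamate genes and 8 of 17 serotonin genes were among the 41. Length moved with this count, since 18 of the 26 members over 200 kb (69.2%, against 39.8% of all genes in that bin) had an interior peak in both replicates, and 2 of the 12 under 10 kb did (16.7%, against 1.89%). By the lower of the replicates, the share of a gene that peaks covered was highest for CHRNA2, a nicotinic alpha subunit, with 67.5% and 84.9%, then HTR3D (52.7% and 53.5%), GABRR2, a rho subunit of the retina (46.5% and 64.6%), and GRIK4, a high-affinity kainate subunit (39.9% and 54.6%). In replicate 2 alone, HTR3A (98.2%) and HTR3C (95.2%, and 33% in replicate 1) were covered more than CHRNA2. HTR1A and HTR1B, Gi-coupled serotonin receptors, and DRD1 were at 0% in replicate 1 and at 83.9%, 79.4% and 66.1% in replicate 2.

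**Figure D3:**
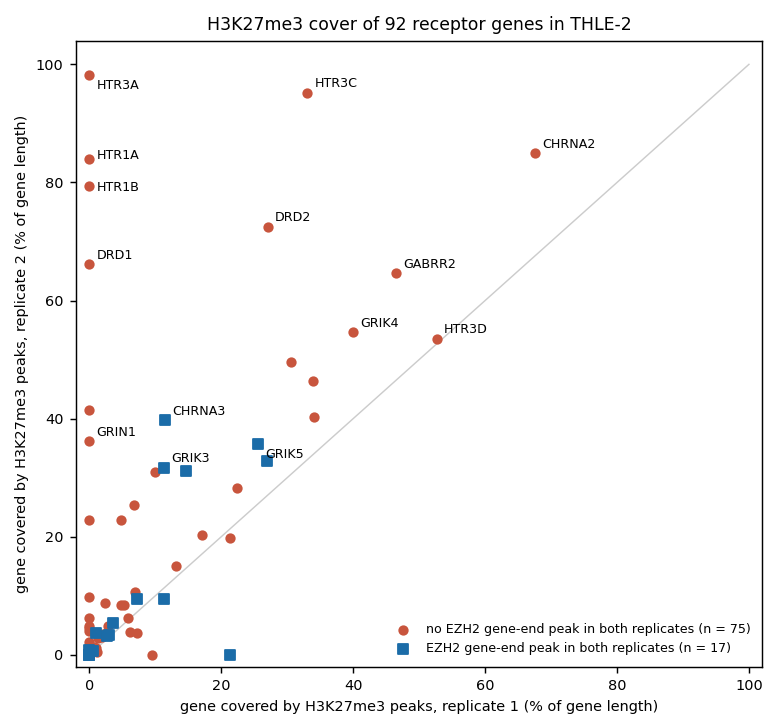
Each point is 1 of the 92 receptor genes, placed by the percent of its length that H3K27me3 peaks cover in replicate 1 (x axis) and replicate 2 (y axis), with squares for the 17 genes with gene-end EZH2 in both replicates and a grey line of equal cover. Most covered genes lie above the line, and HTR3A, HTR1A, HTR1B and DRD1 sit at 0% in replicate 1 with 66.1% to 98.2% in replicate 2.

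EZH2 sites and H3K27me3 met in replicate 2 and rarely in replicate 1. Of the 17 genes with EZH2 in both replicates, 13 had gene-end H3K27me3 in replicate 2, and the exceptions were GABRD, HTR6, CHRM4 and GRIN2C. HTR2C was the 1 that also had it in replicate 1. Of the 975 coding genes with EZH2 in both replicates, 801 had gene-end H3K27me3 in replicate 2 and 163 in replicate 1. Counted by gene end, 13 of 17 EZH2 ends (76.5%) carried H3K27me3 of replicate 2 and 1 (5.88%) that of replicate 1, beside 78.1% and 3.33% of the 1170 EZH2 ends of all coding genes. By gene end, the receptor genes thus showed nearly the split between the H3K27me3 replicates that all EZH2 genes showed. From the EZH2 replicate 1 peaks to the nearest H3K27me3 peak of replicate 1, the gap ranged from 0 to 449 kb with a median of 20.1 kb, beside 7.75 kb over all coding genes. It was 2.84 kb at GRM8, 3.7 kb at HTR6, 5.5 kb at CHRM2 and 6.25 kb at HTR1F, but 449 kb at GRIN2A, 182 kb at CHRM4 and 136 kb at GRIN2C. To replicate 2 the median gap was 0 kb, with 14.5 kb at GABRD, 72.4 kb at HTR6, 185 kb at CHRM4 and 34.9 kb at GRIN2C.

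**Figure D4:**
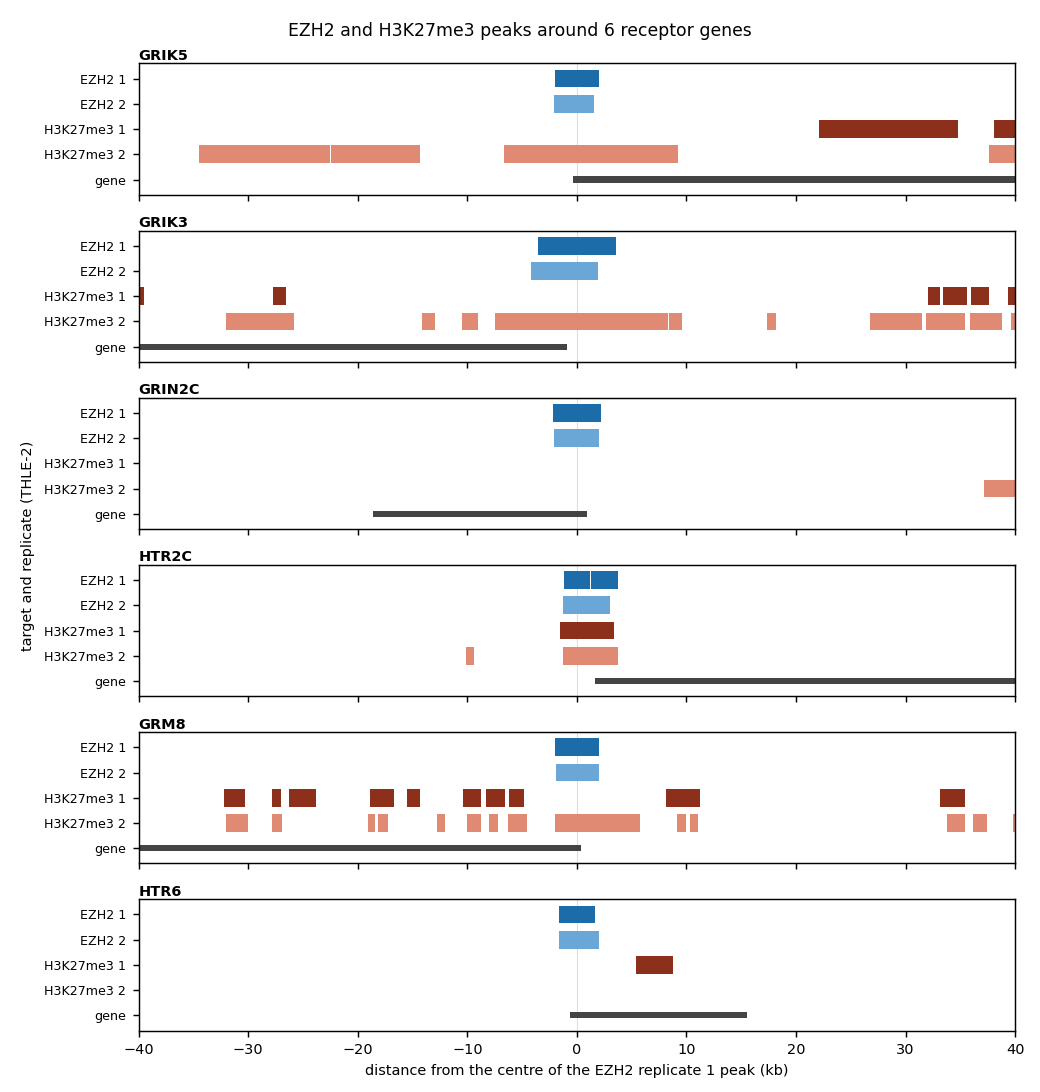
Bars show EZH2 and H3K27me3 peaks of both THLE-2 replicates within 40 kb of the EZH2 replicate 1 peak (x axis, distance from its centre in kb) at 6 receptor genes, with the annotated gene as a dark bar. H3K27me3 of replicate 2 covers the EZH2 peaks of GRIK5, GRIK3, HTR2C and GRM8, that of replicate 1 covers them at HTR2C and leaves them free at the 5 other genes.

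Interior EZH2 peaks were called in 19 receptor genes in replicate 1 (background 4.64%), 25 in replicate 2 (6.7%) and 18 in both (19.6%, against 3.48%). Of these 18, 5 genes, GRIA1, GRIK2, GLRA1 and GRM4 among them, had no gene-end EZH2 peak in both replicates. With the midpoint of the peak required in the interior the count was 4.

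JARID2 was called at 24 receptor gene ends in HepG2 replicate 1 and at 1 in HepG2 replicate 2. The 24 are 26.1% of the members against a background of 22.5%, and the 1 is GRIN2B against a background of 0.716%. THLE-2 replicate 1 had a gene-end peak at GRIN1 (fold 5.48, 17 tags) and replicate 2 at HTR2B, a Gq-coupled serotonin receptor (11.09, 16 tags), against backgrounds of 4.21% and 4.38%. Both HepG2 replicates called 1 member (1.09%, against 0.165%) and both THLE-2 replicates called 0 (against 0.356%). At GRIN2B the HepG2 peaks lay at opposite ends of the gene, chr12:13980646-13981400 over the start in replicate 1 (12.89, 13 tags) and chr12:13537822-13538257 in replicate 2 (8.26, 14 tags). Thus no receptor gene had JARID2 at 1 end in both replicates of a line, beside 0.0851% of all coding genes in HepG2 and 0.28% in THLE-2. The HepG2 libraries averaged 12.5 genes and the THLE-2 libraries 1, a difference of 11.5. The exact permutation test over the 4 libraries gave a two-sided p of 1. The smallest p that 2 against 2 allows is 0.333, but with 3 of the counts tied at 1 every grouping gives the same size of difference, so p could only be 1. The difference was 23 from the libraries numbered 1 and 0 from those numbered 2, so it rests on HepG2 replicate 1, the library with another antibody in its protocol.

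In that library 6 of the 7 NMDA genes had a gene-end JARID2 peak, GRIN1 (7.19), GRIN2A (12.19), GRIN2B (12.89), GRIN2C (9.87), GRIN2D (8.53) and GRIN3B (11.31). Kainate had 3 of 5, metabotropic glutamate 3 of 8, GABA-A 4 of 19, serotonin 3 of 17, nicotinic 2 of 16, and delta, muscarinic and dopamine 1 each. The highest folds were those of GRM4, a Gi-coupled glutamate receptor (16.41, 13 tags), GRID1 (15.85, 47 tags), GRIK1, a kainate subunit (15.53, 13 tags), and GABRA5, an alpha subunit of the hippocampus (15.36, 25 tags). Tag counts ran from 9 at GABRB1 to 79 at GRIN1, in a library of 7.95 M tags. The JARID2 peak lay at the start in 9 and at the other end in 5 of the 67 genes with a strand (13.4% and 7.46%), beside 19.4% and 5.3% of all such genes. Of the 17 EZH2 genes of THLE-2, 8 were among the 24, namely GABRD, HTR6, GRID1, CHRM4, GRIN2A, GRIN2C, GRIK5 and GRM8. That is 47.1% of the EZH2 ends by position, beside 39.6% over all coding genes.

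Interior JARID2 peaks were called in 25 receptor genes in HepG2 replicate 1 (background 22.8%), 7 in replicate 2 (6.41%), 13 in THLE-2 replicate 1 (10.6%) and 19 in THLE-2 replicate 2 (9.99%). CHRM3, a Gq-coupled muscarinic receptor, GABRG3 and HTR1F had them in both HepG2 replicates (3.26%, against 3.3%). In both THLE-2 replicates 4 genes had them, GRIK4, GRM7 and GLRA3 among them (4.35%, against 3.15%). Both shares were near the background. Among the members over 200 kb, 3 of 26 (11.5%) had them in both HepG2 replicates and 3 of 26 in both THLE-2 replicates, beside 27.6% and 26.5% of all genes of that length. The peaks were small, and the highest cover among these 7 genes was 0.407% of the gene, at CHRM3 in HepG2 replicate 2.

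Receptor genes within 500 kb of each other formed 12 clusters, and neighbours could differ. Next to each other on chromosome 4, GABRA2 had EZH2 in both replicates and GABRG1 in neither. GABRG1 had gene-end H3K27me3 in both, while GABRA2 had it in replicate 2 (fold 8.58, over the EZH2 site). GABRA2 also had interior H3K27me3 in both. H3K27me3 peaks covered 2.66% and 3.12% of the whole GABRA2 gene, with the gene-end peak included in replicate 2. The cluster of HTR3D, HTR3C and HTR3E (75.5 kb) was covered to 13.1% and 36.7% by H3K27me3, the cluster of DRD2, HTR3B and HTR3A (581 kb) to 20.8% and 34.0%, and that of GABRR1 and GABRR2 (138 kb) to 36.7% and 51.7%. None of these 3 clusters had EZH2 at a gene end in both replicates. Over the 96.1 kb of CHRNA5, CHRNA3 and CHRNB4, EZH2 covered 4.52% and 4.03%, the highest EZH2 cover of the 12. The span of CHRND and CHRNG, subunits of the muscle receptor, was at 0% for all 8 libraries, since the EZH2 peak of replicate 2 at CHRND lay outside the span.

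At 22 receptor genes no library had a gene-end peak (23.9%, beside 56.6% of all coding genes), and at 13 there was no peak at the ends or in the interior (14.1%, beside 39.0%). Of the 13, 6 are nicotinic, namely CHRNB2 and CHRNA7, common subunits of brain receptors, CHRNA9 and CHRNA10 of the inner ear, and CHRNE and CHRNG of muscle. That class holds 16 genes, so its share is near the 39.0% of all coding genes. Its genes are also short, with a median length of 17.5 kb. The others are CHRM1, the dopamine receptors DRD4 and DRD5, GLRB, which anchors glycine receptors to gephyrin, GLRA2, GABRA6 and GABRE.

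EZH2 was also called at genes that work with the receptors, in lists chosen with earlier results of these data known. Shares by gene length were not counted for these lists, so the shares below are descriptions. Of 52 genes of receptor partners and scaffolds, 10 (19.2%, against 4.88% of all coding genes) had gene-end EZH2 in both replicates, among them CACNG4 (11.65 and 10.8), CACNG7 (9.54 and 6.56) and SHISA7 (7.44 and 6.94), auxiliary subunits of AMPA or GABA-A receptors, and CBLN1 (8.7 and 5.9), a cerebellin that organises synapses. Of 37 genes of transmitter synthesis and transport, 10 (27%) had it, with GAD1 (6.21 and 5.4) and GAD2 (6.92 and 5.91), which make GABA, and CHAT and SLC18A3, which share 1 peak and make and load acetylcholine (8.36 and 8.95). H3K27me3 in both replicates was called at 6 of the 52 (11.5%) and at 10 of the 37 (27%), against 6.75%. No gene of either list had gene-end JARID2 in both replicates of a line, while HepG2 replicate 1 alone had 16 (30.8%) and 8 (21.6%), against 22.5%.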

How the data were processed

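The authors deposited 1 peak list for each of the 8 IP libraries. Per the submitters' processing notes, reads went through cutadapt and Bowtie2 (versions not given in the sources used), MACS 1.4.2 called the peaks, and the build was GRCh38. Per the file headers, each IP library was compared with its own input, reads mapped uniquely, duplicates were held to 1 tag, the p cutoff was 1e-05, the larger library was scaled to the smaller, and replicates stayed separate. For every peak the deposited lists hold a tag count, a score (the log10 of the p times −10), a fold enrichment with the input as control, and a false discovery rate in percent. Tag depth is given with the results.

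Peaks on chromosomes 1 to 22 and X were overlapped (at least 1 bp) with RefSeq GRCh38.p14 gene spans, using python 3.11.15, pandas 2.3.3 and numpy 2.4.6, and the overlap was tested on simulated peaks. The gene table holds no strand, so both gene ends were used. Strand and promoter sequence came from the RefSeq promoter table for 70 of the 92 members. Counts of genes are descriptions beside the same count over all coding genes, and the 1 test is an exact permutation over the 4 JARID2 libraries.

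The members, classes and lists were chosen with earlier results of these data known. Named genes are, for each group, the 8 best by the worse of 2 fold ranks, genes called in both replicates of 2 groups, the 4 best covered, and members of clusters (at most 500 kb apart); other genes named were chosen after their values were seen. Some genes the rule takes are not reported here by name, and all counts include them. Alternatives were windows of 1 and 5 kb, a score of at least 100, the 2081 top-scoring peaks of each list, peak midpoints, the same end, gene starts, 10% interior cover, and leaving out each replicate.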

Additional observations from a re-analysis of the deposited data

How the results depend on the processing

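The EZH2 gene-end count of 17 ranged from 13 to 24 over its alternatives. The 13 genes at a score of at least 100 can only lie among the 17, since those peaks are part of the same lists. A score of at least 100 gave 11 genes with interior EZH2, 10 with gene-end H3K27me3, 0 with gene-end or interior JARID2 in both HepG2 replicates, and 0 with interior JARID2 in both THLE-2 replicates. Taking the 2081 top-scoring peaks of each list gave 2 genes with gene-end and 4 with interior H3K27me3, 0 with gene-end or interior JARID2 in HepG2, and 2 with interior JARID2 in THLE-2. A 5 kb window gave 33 genes with gene-end H3K27me3 and gene starts alone 11. The same end in both replicates, or gene starts alone, gave 0 for HepG2 JARID2. Peak midpoints gave 4 genes with interior EZH2, and 10% interior cover gave 1 for EZH2, 18 for H3K27me3 and 0 for JARID2 in each line. With 1 replicate left out, gene-end counts ran from 22 to 56 for H3K27me3, from 1 to 24 for HepG2 JARID2 and stood at 1 for THLE-2 JARID2. Interior counts then ran from 43 to 58, from 7 to 25 and from 13 to 19. The JARID2 difference between lines ran from 0 to 23.

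With the replicate block, that difference was 11.5 with an exact permutation p of 1; the numbers pair no samples by any label. With 3 counts tied at 1, every regrouping gives a difference of the same size, so either p could only be 1 and says nothing about stability. JARID2 depth of 7.95 to 14.6 M tags, beside 29.6 to 39.0 M for the other targets, did not order the peak counts, since the library of 7.95 M tags gave 15687 peaks and that of 14.6 M gave 4075. Its part in the counts was not tested.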
